A study of Mus musculus with 18 samples.

Results

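The mature miRNAs and host transcripts of the imprinted Dlk1-Dio3 domain were followed in mouse melanoma B16 cells after differentiation treatment. The miRNAs were chosen by name, as every arm and lettered form of 45 miRNA numbers assigned to the domain, which gave 97 of the 1978 mature miRNAs in the miRNA count table. The host transcripts were Meg3, Rian, Mirg and Dlk1, 4 of 46068 genes in the total RNA count table. The study treated B16 cells with PB-4, the sodium salt of 4-phenylbutanoic acid and an inhibitor of histone deacetylases, or with ATRA (all-trans retinoic acid), which binds and activates retinoic acid receptors, and profiled them against a control group to ask which RNAs change when the cells differentiate. Each group had 3 miRNA libraries and 3 total RNA libraries, 18 in all. The labels name the B16 line but give skin as the source, and the sources used here give neither dose nor duration for the sequenced cells. The labels do not say whether the libraries of a group came from separate cultures, so the p-values below measure the spread between these libraries only.

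The Dlk1-Dio3 domain is an imprinted region in which the 2 parental chromosomes are used differently. Dlk1, Rtl1 and Dio3 are transcribed from the paternal chromosome, and Meg3, Rian, Mirg and a large group of miRNAs from the maternal one, as a long series of noncoding transcripts whose introns and exons are cut into snoRNAs and miRNA hairpins. In the mouse these miRNAs are best known from embryo, placenta, brain and muscle, and in neurons and muscle MEF2 transcription factors are known to drive them. Most adult tissues other than brain hold little of them.

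The mature sequences below are those of the miRNAs that the comparisons turn on, from RefSeq (GRCm38.p6), with the seed (bases 2 to 8, the part that pairs with target mRNAs) in capitals. All lie on the plus strand of chromosome 12, in the order in which they are given.
miR-127-3p (chr12:109592888-109592909): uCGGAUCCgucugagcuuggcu
miR-341-3p (chr12:109611556-109611576): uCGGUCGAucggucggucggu
miR-379-5p (chr12:109709065-109709085): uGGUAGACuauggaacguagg
miR-411-5p (chr12:109710190-109710210): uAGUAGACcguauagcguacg
miR-411-3p (chr12:109710225-109710246): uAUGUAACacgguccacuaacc
miR-380-3p (chr12:109711842-109711863): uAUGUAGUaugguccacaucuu
miR-494-3p (chr12:109715367-109715388): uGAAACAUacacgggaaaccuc
miR-543-3p (chr12:109717304-109717325): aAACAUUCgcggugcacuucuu
miR-495-3p (chr12:109718795-109718816): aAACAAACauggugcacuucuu
miR-654-3p (chr12:109723270-109723291): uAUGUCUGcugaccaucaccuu
miR-300-3p (chr12:109724363-109724384): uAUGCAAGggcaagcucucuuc
miR-381-3p (chr12:109726870-109726891): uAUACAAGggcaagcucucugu
miR-541-5p (chr12:109742422-109742446): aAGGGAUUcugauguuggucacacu
miR-369-3p (chr12:109743466-109743486): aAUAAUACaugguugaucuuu
miR-410-3p (chr12:109743764-109743784): aAUAUAACacagauggccugu

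RefSeq held a mature sequence for 93 of the 97 miRNAs. No 2 of the printed miRNAs shared a seed. Among miRNAs outside the name rule, the seed of miR-379-5p was also that of miR-1193-5p, which lies in the same interval, and the seed of miR-411-5p that of miR-7229-5p. The seed of miR-410-3p was also that of miR-344d-3p and miR-344e-3p, and the seed of miR-495-3p that of miR-1192 and miR-12200-5p. miR-300-3p and miR-381-3p were the most alike of those printed, with a shared run of 16 bases, and miR-495-3p and miR-543-3p shared a run of 12 bases at their 3′ ends. The sources used here do not say how reads were placed between such near copies. miR-299a and miR-299b lie on opposite strands of the same site and share runs of 21 bases in their 5′ arms and 18 in their 3′ arms, so their counts are uncertain. miR-496b, which the name rule included, is placed by RefSeq on chromosome 19 and held 2 counts in all.

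The 97 miRNAs came from 49 hairpins, of which 48 were placed in the domain. The largest gap between neighbouring hairpins (90.7 kb; the next largest was 16.1 kb) divided them into a proximal group and a distal group. The proximal group held 13 hairpins from Mir770 to Mir370 over 54.6 kb, within and between Meg3, Rtl1 and Rian. The distal group held 35 hairpins from Mir379 to Mir410 over 34.7 kb, and ran into Mirg. The proximal hairpins gave 26 of the mature miRNAs and the distal hairpins 70.

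All of these miRNAs were scarce. Library depth was 3838621 to 6856229 miRNA counts, and the 97 miRNAs held 2728 counts in total over the 9 libraries. The highest single value was 70 counts, for miR-127-3p in ATRA replicate 3. Levels below are CPM, counts scaled to library size with TMM factors over the 9 libraries. The mean level passed 1 CPM for 16 of the 97 miRNAs, the best placed ranked 440 among 1978, and the median was 0.265 CPM, against 0.514 CPM over all mature miRNAs. A library with no count of a miRNA allowed up to 3 counts, or 0.462 to 0.818 CPM. Such limits, like the counting intervals below, cover counting error only. Summed over the 96 miRNAs placed in the domain, the PB-4 libraries held 84.8, 58.3 and 97.1 CPM, the ATRA libraries 21.2, 85.7 and 62.9 CPM, and the control libraries 27.4, 41.5 and 22.6 CPM. The sums averaged 80.1 ± 19.8 with PB-4, 56.6 ± 32.7 with ATRA and 30.5 ± 9.82 in control cells (SD, n = 3 each). The lowest PB-4 library (58.3 CPM) lay above the highest control library (41.5 CPM). ATRA replicate 1 (21.2 CPM) lay below all control libraries, and ATRA replicates 2 and 3 (85.7 and 62.9 CPM) lay above them.

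**Figure D1:**
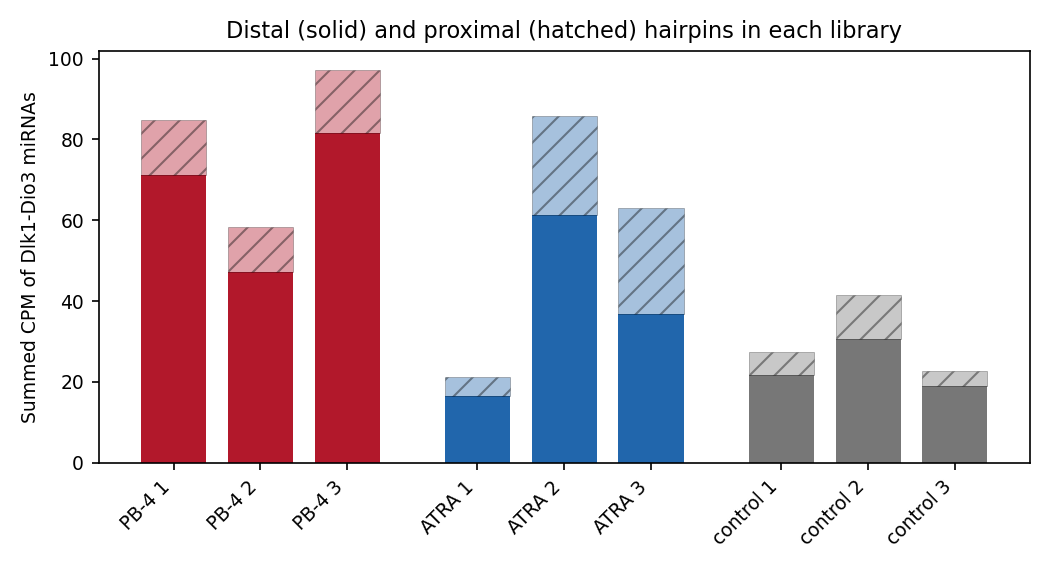
Summed CPM (y axis) of the distal (solid) and proximal (hatched) Dlk1-Dio3 hairpins in each miRNA library (x axis), 1 bar per library. The PB-4 bars reach 58.3 to 97.1 CPM and the control bars 22.6 to 41.5 CPM, while ATRA replicate 1 stands at 21.2 CPM and the other ATRA libraries at 85.7 and 62.9 CPM.

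The distal hairpins made up most of the sum. They averaged 66.6 ± 17.7 CPM with PB-4, 38.2 ± 22.5 with ATRA and 23.8 ± 6.01 in control cells, so that the PB-4 mean was 2.80 times the control mean. The proximal hairpins averaged 13.5 ± 2.17 CPM with PB-4, 18.4 ± 11.9 with ATRA and 6.69 ± 3.81 in control cells, 2.01 times the control mean with PB-4 and 2.76 times with ATRA. Without miR-127-3p the proximal means were 12.3 CPM with PB-4, 10.1 with ATRA and 6.32 in control cells. The PB-4 libraries did not overlap with the control libraries in either group of hairpins (lowest PB-4 and highest control value, 47.1 and 30.6 CPM in the distal group and 11.2 and 10.9 CPM in the proximal group). The sums are descriptions and were not tested.

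A second feature divided the miRNA libraries. PB-4 replicate 2, ATRA replicate 3 and control replicate 2 held 26.9, 63.6 and 57.2 CPM of miR-690, a miRNA outside the domain, and the other libraries 403 to 2429 CPM. Of 463 miRNAs with a mean over 5 CPM, 17 were lower in these 3 libraries than in all others and 4 were higher. Within these 3 libraries the domain summed to 58.3 CPM with PB-4, 62.9 with ATRA and 41.5 in the control. In the other libraries it summed to 84.8 and 97.1 CPM with PB-4, 21.2 and 85.7 with ATRA, and 27.4 and 22.6 in the control. The PB-4 values were above the control values in both sets. The set low in miR-690 held a single library of each group, and the part of this feature in the sums was not tested.

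**Figure D2:**
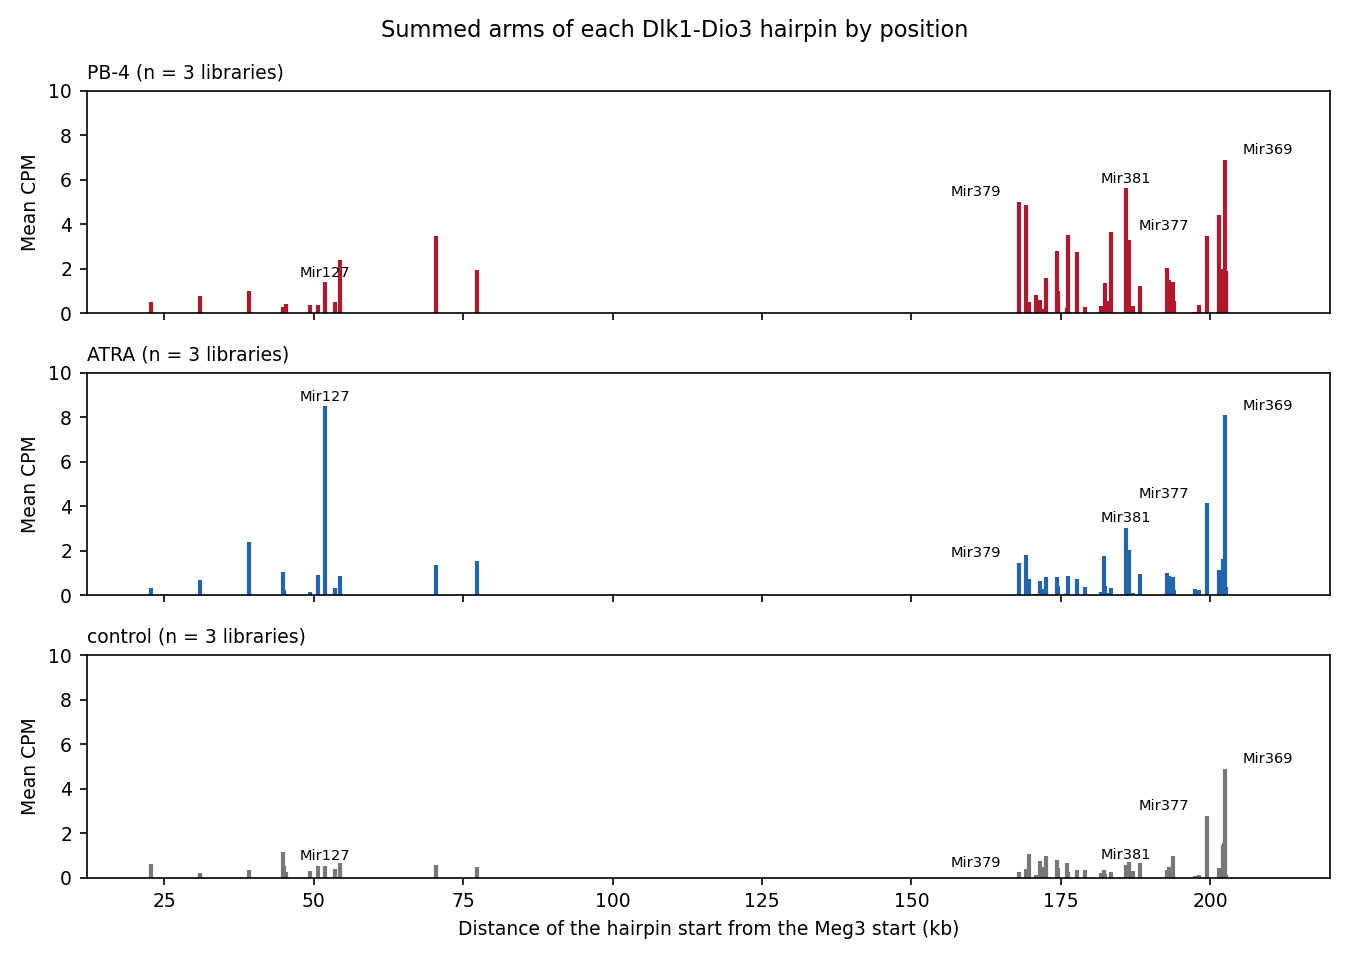
Mean CPM of each hairpin (y axis, both arms summed, mean of 3 libraries) against the distance of its start from the start of Meg3 in kb (x axis), with PB-4 on top, ATRA in the middle and control at the bottom. With PB-4 the distal group carries Mir379 (5.01 CPM), Mir411 (4.84) and Mir381 (5.62), with ATRA Mir127 in the proximal group reaches 8.50 CPM, and Mir369 is high in every group.

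The comparison of PB-4 with control cells asked which domain miRNAs change with PB-4. With PB-4, every call among the domain miRNAs was higher. By edgeR's quasi-likelihood test, with p adjusted over all miRNAs tested, 11 of the 45 that could be tested were called higher and 0 lower, beside 11.9% higher and 4.65% lower of all 1291 miRNAs tested (calls at an adjusted p under 0.05). At an unadjusted p under 0.05, 18 were higher and 0 lower. The other 52 had under 10 counts over the 6 libraries. The median log2 fold change of the 45 was 1.81, against 0.16 for all 1291. A scarce miRNA passes that minimum more easily if it is high in 1 group, so the median and the share called describe only those tested. Low control counts also left little room for a lower call. miR-337-3p had the lowest log2 fold change (-1.78), from 4 counts with PB-4 and 15 in control cells, and was not called (edgeR adjusted p = 0.298). Each of the 11 reached the minimum through its PB-4 counts, with control sums from 1 (miR-495-3p and miR-411-3p) to 9 (miR-381-3p). All 3 PB-4 libraries lay above all 3 control libraries for 18 of the 45, beside 17.4% of all miRNAs tested. Of the 11, 10 came from the distal group (34 tested) and 1, miR-341-3p, from the proximal group (11 tested).

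The distal group opened with 2 called hairpins, Mir379 and Mir411. miR-379-5p, the 5′ arm of its first hairpin, had 36, 18 and 29 counts in PB-4 libraries, against 2, 1 and 1 in control libraries. It averaged 4.90 ± 1.88 CPM with PB-4 and 0.254 ± 0.076 in control cells, a log2 fold change of 4.27 ± 0.58 (SE; edgeR adjusted p = 0.000536). Its other arm, miR-379-3p, had 0, 2 and 0 counts with PB-4 and none in control cells. The neighbouring miR-411-5p had 22, 16 and 27 counts with PB-4 and 3, 3 and 0 in control cells (log2 fold change 3.45 ± 0.69, edgeR adjusted p = 0.00512). From the same hairpin miR-411-3p had 5, 6 and 6 counts with PB-4 and 0, 1 and 0 in control cells (edgeR adjusted p = 0.0362). The pooled count ratio of miR-411-3p was 15.4, with an exact 95% counting interval of 2.42 to 646. Both arms of Mir411 were thus called, and in each the PB-4 and control libraries did not overlap.

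Within the distal group, miR-494-3p, miR-543-3p and miR-495-3p rose as well. miR-494-3p had 11, 15 and 16 counts with PB-4 and 2, 1 and 2 in control cells (log2 fold change 2.94 ± 0.67, edgeR adjusted p = 0.0104). miR-543-3p had 20, 19 and 20 counts with PB-4 and 1, 2 and 0 in control cells (edgeR adjusted p = 0.00171), a pooled ratio of 17.9 (interval 5.82 to 89.1). miR-495-3p had 15, 8 and 16 counts with PB-4 and 1, 0 and 0 in control cells (edgeR adjusted p = 0.00477), a pooled ratio of 35.4 (interval 6.0 to 1435). The last interval is wide because the control group held a single count. No PB-4 library of these miRNAs was as low as a control library.

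The near copies miR-300-3p and miR-381-3p rose together. miR-300-3p had 20, 17 and 23 counts with PB-4, against 3, 1 and 0 in control cells (log2 fold change 3.85 ± 0.73, edgeR adjusted p = 0.00344). miR-381-3p had 27, 32 and 35 counts with PB-4, against 4, 4 and 1 in control cells (log2 fold change 3.37 ± 0.47, edgeR adjusted p = 0.000571). It was the most abundant of the called miRNAs, at 5.49 ± 1.15 CPM with PB-4 and 0.532 ± 0.226 in control cells (SD, n = 3). Toward the end of the domain, miR-541-5p had 23, 15 and 29 counts with PB-4 and 1, 2 and 1 in control cells (log2 fold change 3.98 ± 0.63, edgeR adjusted p = 0.00128). miR-410-3p, from the last hairpin, had 9, 5 and 15 counts with PB-4 and 0, 2 and 0 in control cells (edgeR adjusted p = 0.0345), a pooled ratio of 13.2 (interval 3.33 to 114). The calls therefore spanned the distal group from its first to its last hairpin.

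In the proximal group miR-341-3p, whose mature sequence is largely made of cggu repeats, had 20, 14 and 15 counts with PB-4 and 1, 3 and 1 in control cells (log2 fold change 3.20 ± 0.65, edgeR adjusted p = 0.00562). miR-370-3p, from the next hairpin, had 14, 5 and 9 counts with PB-4 and 3, 1 and 1 in control cells (2.43 ± 0.77, edgeR adjusted p = 0.0567), and was not called. PB-4 and control miRNA libraries of the same number deviated together, though replicate 2 of both groups was low in miR-690. With the replicate number as a block miR-370-3p was called higher (edgeR adjusted p = 0.0461), as it was with no filter on low counts and without PB-4 replicate 2 (lowest adjusted p 0.0323). The proximal miRNAs of the stretch antisense to Rtl1, whose best known member miR-127-3p directs cleavage of the Rtl1 transcript, gave no call. miR-127-3p had 4, 10 and 7 counts with PB-4 and 0, 5 and 1 in control cells (1.71 ± 0.92, edgeR adjusted p = 0.274), and the groups overlapped.

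Of the 34 tested members that were not called, 7 had an unadjusted p under 0.05, all higher with PB-4. They included miR-380-3p, with 5, 5 and 3 counts with PB-4 and 1, 0 and 0 in control cells (edgeR adjusted p = 0.0768), and miR-409-3p, with 8, 7 and 6 counts with PB-4 and 1, 3 and 0 in control cells (edgeR adjusted p = 0.0922). miR-382-5p had 9, 3 and 7 counts with PB-4 and 1, 2 and 0 in control cells (edgeR adjusted p = 0.0925). miR-134-5p, known from the mouse and rat for its work in the dendrites of neurons, had 10, 8 and 7 counts with PB-4 and 2, 5 and 0 in control cells (edgeR adjusted p = 0.174). In all 4 the PB-4 libraries lay above the control libraries in CPM, and they were singled out after their values were seen.

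The 11 calls were not equally secure. Of them, 7 (miR-300-3p, miR-341-3p, miR-379-5p, miR-381-3p, miR-411-5p, miR-541-5p and miR-543-3p) were also called in all 14 alternative analyses, each library left out in turn among them. miR-495-3p was called in the 13 in which it was tested. miR-494-3p was lost without control replicate 1, with all 9 libraries in one fit, and without the 3 libraries low in miR-690 (adjusted p up to 0.0719). miR-410-3p was lost without PB-4 replicate 1 or 3 or control replicate 1 or 3 (adjusted p up to 0.135). miR-411-3p was lost without any of PB-4 replicates 1, 2 and 3 or control replicates 1 and 3, under DESeq2, with all 9 libraries in one fit and without the 3 libraries low in miR-690 (adjusted p up to 0.116).

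**Figure D3:**
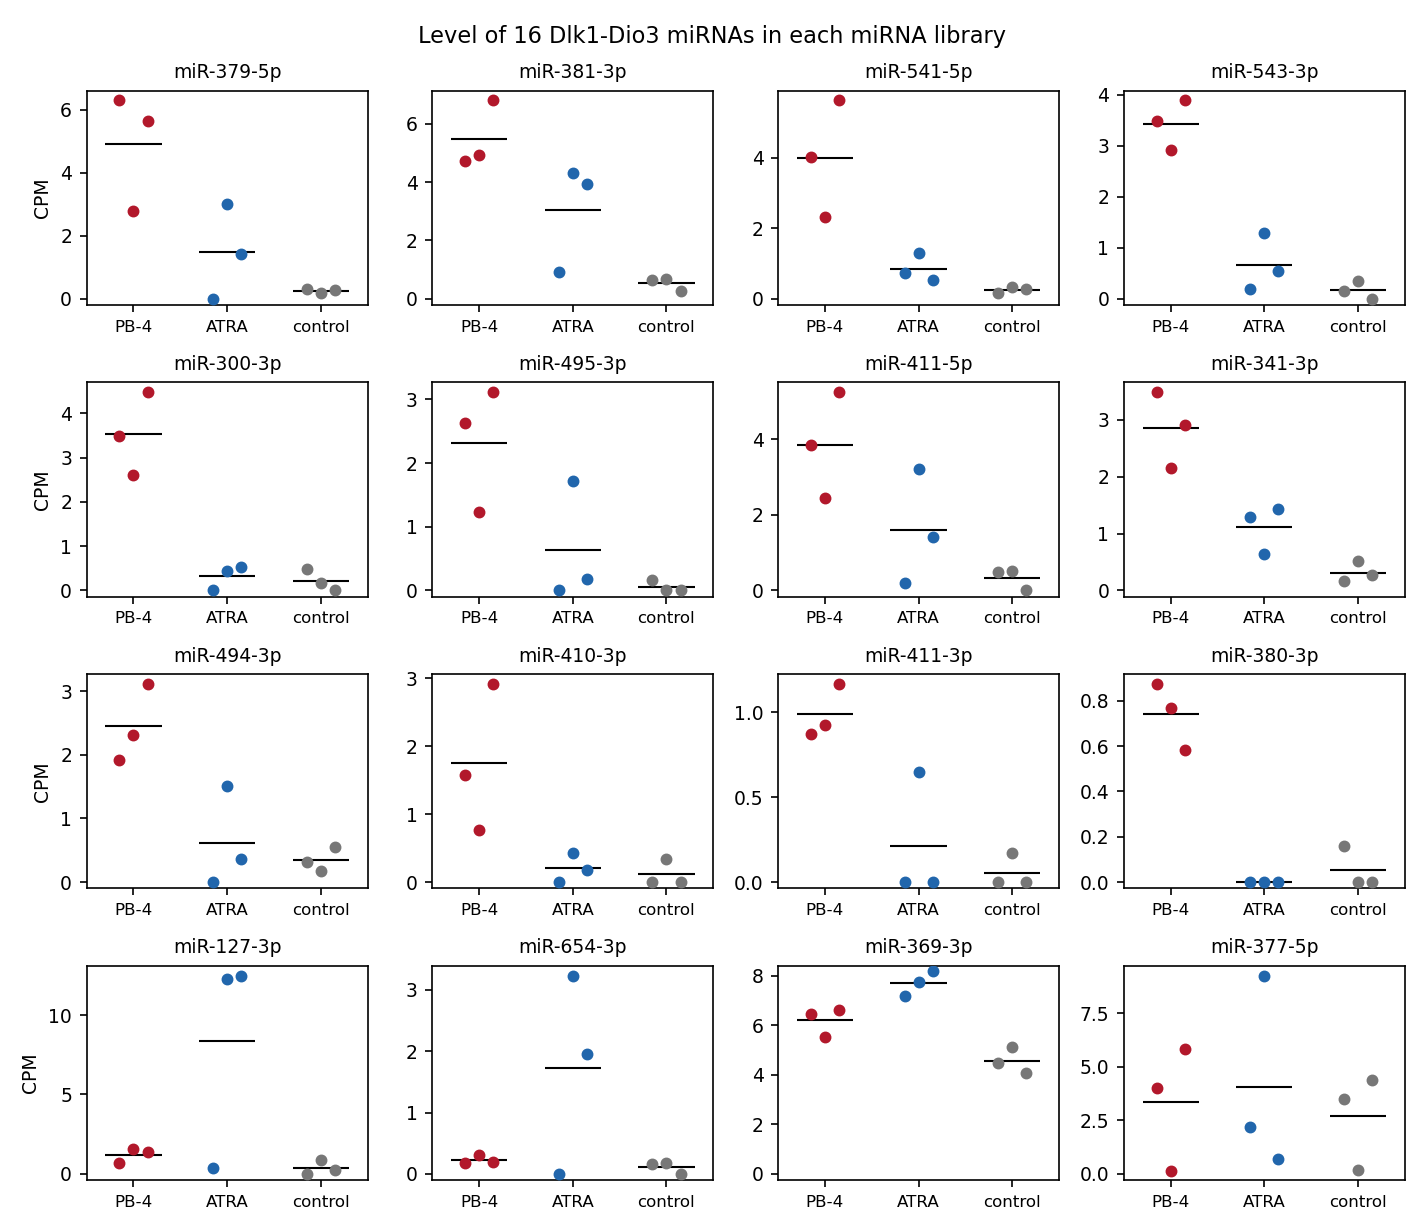
CPM (y axis) of 16 Dlk1-Dio3 miRNAs in each library (points), by group (x axis: PB-4, ATRA, control), with the group mean as a line; each panel has its own scale. The first 11 panels are the miRNAs called higher with PB-4 than in control cells, in which no PB-4 point is as low as the highest control point; miR-127-3p and miR-654-3p are high in ATRA replicates 2 and 3 only, and miR-369-3p is alike in all libraries of a group.

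With ATRA, none of 35 domain miRNAs tested was called higher or lower than in control cells by edgeR (0 and 0, beside 2.06% higher and 1.32% lower of 1213 miRNAs tested). At an unadjusted p under 0.05, 5 were higher and 0 lower, and DESeq2 called 1 higher. Another 62 were not tested for want of counts. The median log2 fold change of the 35 was 0.81, against -0.03 for all 1213. It describes only those tested, as a scarce miRNA high in 1 group passes the minimum count more easily. All ATRA libraries lay above all control libraries for 6 of the 35, beside 10.2% of all miRNAs tested.

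The ATRA libraries differed among themselves. miR-127-3p had 2, 57 and 70 counts with ATRA, against 0, 5 and 1 in control cells, or 0.369, 12.3 and 12.5 CPM with ATRA and 0, 0.854 and 0.273 CPM in control cells (log2 fold change 4.35 ± 1.63, edgeR adjusted p = 0.39). miR-654-3p, a distal miRNA, had 0, 15 and 11 counts with ATRA and 1, 1 and 0 in control cells (3.54 ± 1.30, edgeR adjusted p = 0.261). Both were high in ATRA replicates 2 and 3 and at control level in ATRA replicate 1. miR-493-5p followed the same order, with 0, 10 and 14 counts with ATRA and 0, 2 and 0 in control cells (edgeR adjusted p = 0.331). miR-381-3p had 5, 20 and 22 counts with ATRA and 4, 4 and 1 in control cells (2.38 ± 0.70, edgeR adjusted p = 0.117), and its groups did not overlap in CPM. Without ATRA replicate 1, 3 were called higher (miR-127-3p, miR-381-3p and miR-654-3p). miR-654-3p and miR-493-5p were singled out after their values were seen. ATRA replicate 1 was the deepest miRNA library, with 6856229 counts.

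Set against ATRA, PB-4 gave 4 domain miRNAs called higher and 0 lower of 48 tested by edgeR, beside 9.45% higher and 5.2% lower of 1249 miRNAs tested. The share of domain miRNAs called higher was thus no greater than that over all miRNAs. At an unadjusted p under 0.05, 6 were higher and 1 lower, and 49 were not tested. The median log2 fold change was 0.72 for the 48 and 0.16 for all 1249, and it describes only those that passed the minimum count. This comparison and the ones with control cells share their libraries and are not independent.

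miR-300-3p had 20, 17 and 23 counts with PB-4, against 0, 2 and 3 with ATRA (log2 fold change 3.43 ± 0.81, edgeR adjusted p = 0.019). miR-541-5p had 23, 15 and 29 counts with PB-4 and 4, 6 and 3 with ATRA (2.26 ± 0.58, edgeR adjusted p = 0.0279). miR-543-3p had 20, 19 and 20 counts with PB-4 and 1, 6 and 3 with ATRA (2.38 ± 0.68, edgeR adjusted p = 0.0447). These 3 were also among the miRNAs called higher with PB-4 than in control cells. miR-380-3p had 5, 5 and 3 counts with PB-4 and none in any ATRA library (edgeR adjusted p = 0.0463). With 3 counts over the ATRA group taken as the floor, PB-4 was 3.92-fold higher, which leaves out counting error in the PB-4 counts. The exact counting interval of the pooled ratio had a lower limit of 2.75 and no upper limit. miR-380-3p passed the minimum count through the PB-4 libraries alone. Control cells held 1, 0 and 0 counts of miR-380-3p, and PB-4 was not called against them (edgeR adjusted p = 0.0768). The count of 4 fell to 0 without PB-4 replicate 1 or 3, to 1 without ATRA replicate 1 or 3, and to 2 without PB-4 replicate 2, and was 6 without ATRA replicate 2.

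The opposite order was seen for miR-127-3p, with 4, 10 and 7 counts with PB-4 and 2, 57 and 70 with ATRA (log2 fold change -2.75 ± 1.20, edgeR adjusted p = 0.266). miR-654-3p had 1, 2 and 1 counts with PB-4 and 0, 15 and 11 with ATRA (-2.77 ± 1.21, edgeR adjusted p = 0.205). Neither was called, and the groups overlapped through ATRA replicate 1. Without that library both were called lower with PB-4 than with ATRA (2 called lower), and DESeq2 called miR-127-3p lower with all libraries.

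**Figure D4:**
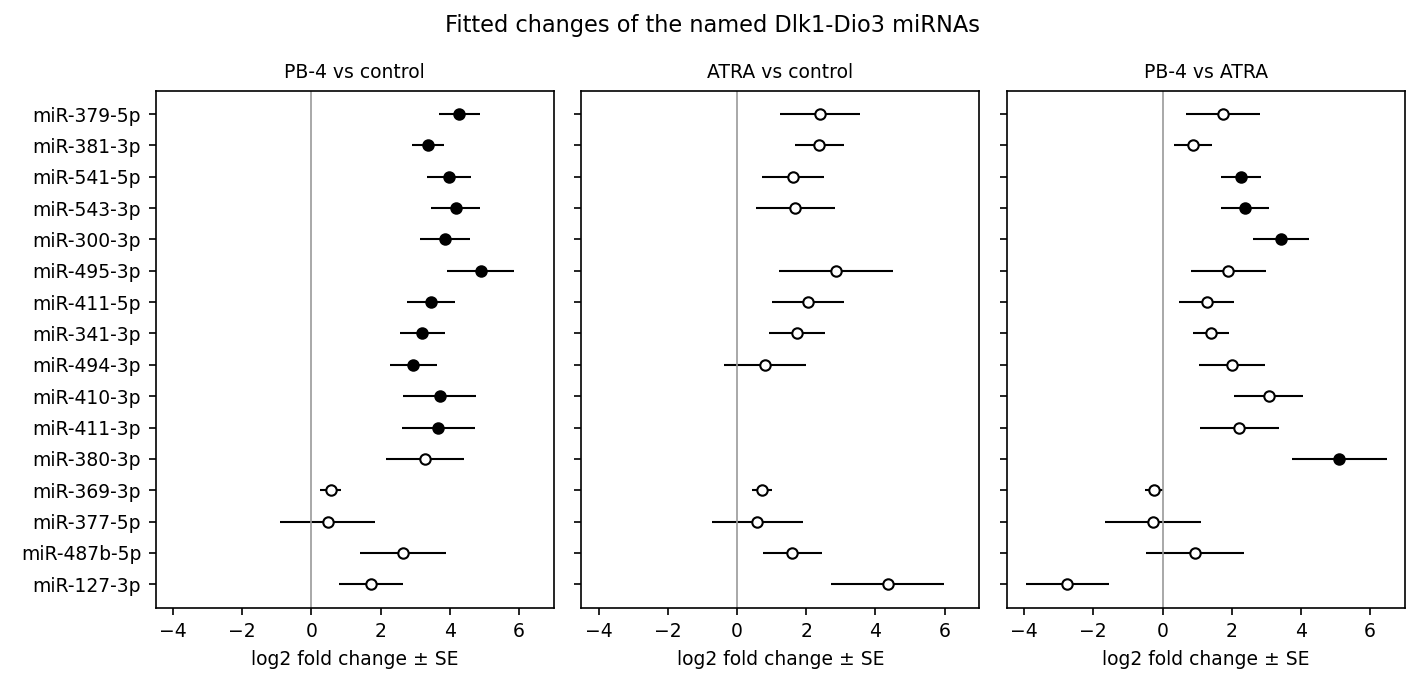
Fitted log2 fold change ± SE (x axis) of 16 Dlk1-Dio3 miRNAs (y axis) in the 3 comparisons; filled points have an edgeR adjusted p under 0.05, and a miRNA without a point was not tested. All 11 miRNAs called against control have log2 fold changes of 2.94 to 4.89 in that panel, miR-369-3p lies between -0.25 and 0.72 in the 3 panels, and the value of miR-380-3p against ATRA depends on the prior count because the ATRA group held no count.

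The most abundant domain miRNA was higher with PB-4 by a small margin and was not called. miR-369-3p, from the hairpin just before that of miR-410-3p, had 37, 36 and 34 counts with PB-4, 39, 36 and 46 with ATRA and 28, 30 and 15 in control cells. In CPM it averaged 6.21 ± 0.58 with PB-4, 7.71 ± 0.51 with ATRA and 4.56 ± 0.52 in control cells (SD, n = 3 each). The groups did not overlap, but the log2 fold changes against control were 0.56 ± 0.30 with PB-4 (edgeR adjusted p = 0.282) and 0.72 ± 0.29 with ATRA (adjusted p = 0.329), and neither was called. Between PB-4 and ATRA the value was -0.25 ± 0.26 (adjusted p = 0.692). In control cells miR-369-3p thus held 73 counts beside 2 for the neighbouring miR-410-3p, and with PB-4 107 beside 29.

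Abundant members also varied with the library feature described above. miR-377-5p had 23, 1 and 30 counts with PB-4, 12, 43 and 4 with ATRA and 22, 1 and 16 in control cells. miR-487b-5p had 24, 0 and 25 counts with PB-4, 7, 15 and 2 with ATRA and 3, 3 and 2 in control cells. With PB-4 and with ATRA, both were lowest in the libraries that were low in miR-690, and miR-377-5p also in control cells. Neither was called in the 3 comparisons (edgeR adjusted p of 0.236 to 0.952). Without PB-4 replicate 2, miR-487b-5p was called higher with PB-4 than in control cells (edgeR adjusted p = 0.00337). The part of the library feature in these values was not tested. Without the 2 miRNAs the sum over the other 95 chosen by name averaged 73.7 ± 14.3 CPM with PB-4, 50.9 ± 29.3 with ATRA and 27.4 ± 12.1 in control cells. Without the 3 libraries low in miR-690, an alternative chosen after the data were seen, 10 domain miRNAs were called higher with PB-4 than in control cells, 9 of them among the 11, and the other was miR-487b-5p.

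The 2 arms of a hairpin were seldom equal. Of 46 hairpins with both arms in the table and at least 10 counts over the 9 libraries, the 3′ arm held more counts in 23 and the 5′ arm in 23. Mir381 gave 150 counts from its 3′ arm and 3 from its 5′ arm, and Mir379 gave 109 from its 5′ arm and 2 from its 3′ arm. Of the 11 miRNAs called higher with PB-4 than in control cells, 10 were the more abundant arm of their hairpin. The exception was miR-411-3p, with 21 counts beside 95 of miR-411-5p.

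Other miRNAs placed between Dlk1 and Dio3 by RefSeq, outside the name rule, gave no call. These were 17 mature miRNAs matched to their hairpins by name, of which 7 could be tested against control cells with PB-4 and 7 with ATRA. The most abundant, miR-1247-5p from the Dio3 end, had 25, 47 and 44 counts with PB-4, 9, 85 and 40 with ATRA and 74, 49 and 57 in control cells (log2 fold change of PB-4 against control -0.70). Of the 7 tested with PB-4 against control, miR-1197-3p (3.24), miR-3071-3p (2.31) and miR-3071-5p (1.86) had positive log2 fold changes and the other 4 negative ones. miR-3071-3p had 3, 14 and 13 counts with PB-4, 0, 9 and 2 with ATRA and 5, 1 and 0 in control cells. As a second imprinted miRNA group, 80 mature miRNAs of the Sfmbt2 intron cluster were counted, and of 26 tested with PB-4 against control none was called (0 of 23 with ATRA). Over all miRNAs 11.9% were called higher and 4.65% lower with PB-4 against control, and 2.06% and 1.32% with ATRA. With only 7 tested, the lack of calls among the 17 does not set them apart from other miRNAs. The difference between the domains was not tested.

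The host transcripts were at or near 0 in total RNA. Meg3, the noncoding RNA that opens the maternal transcript series, had 0 counts in all 9 total RNA libraries. Dlk1, a ligand that modulates Notch signalling, also had 0 counts in all 9. Rian, the host of the snoRNAs and of the proximal hairpins Mir341 and Mir370, had 1 count, in PB-4 replicate 3. Mirg, the host of the last distal hairpins, had 1 count, in the same library. With 12632669 to 36176443 counts per library, 0 counts allows up to 3, or 0.0777 to 0.255 CPM in a single library, and 0.0381 CPM over the PB-4 group, 0.0382 over the ATRA group and 0.0407 over the control group. None of the 4 had the 10 counts needed for the test, in any comparison, so no change of a host transcript could be measured at this depth.

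The whole interval gave almost no counts. From the start of Dlk1 to the end of Dio3 (chr12:109452485-110281097), 89 RefSeq genes were matched in the total RNA table, and 85 had 0 counts in all 9 libraries. These included the protein-coding genes Rtl1 and Dio3, the 7 snoRNAs and all 61 miRNA genes. Besides Rian and Mirg, the pseudogene Gm3379 had 76 counts over the 3 groups, and the noncoding Gm34719 had 6, all in PB-4 replicate 1. The miRNA rise with PB-4 was thus measured in the miRNA libraries, with no host level to set beside it.

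Genes just outside the interval were expressed. Of 12 protein-coding genes of the domain and its flanks, 9 could be tested with PB-4 against control, and 1 rose and 1 fell, beside 11.5% higher and 4.59% lower of all 19450 genes tested. In total RNA same-numbered libraries deviated together, though replicates 1 and 2 also did so across numbers. Calls with the replicate number as a block are therefore also given. Here they were 2 higher and 4 lower, beside 23.1% higher and 21.3% lower of all genes with the block. Begain, the flanking gene on the Dlk1 side, had 75, 50 and 108 counts with PB-4, 14, 7 and 33 with ATRA and 21, 18 and 14 in control cells (log2 fold change against control 2.34 ± 0.68, edgeR adjusted p = 0.0493). Hsp90aa1, a chaperone gene on the other side, fell (-1.56 ± 0.32, edgeR adjusted p = 0.0139). With ATRA none of the 9 was called, beside 0.441% higher and 0.625% lower of all genes tested. With the block 2 were higher and 1 lower, beside 7.53% higher and 10.8% lower of all genes.

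The genes known to keep imprints and to act on such domains were read from lists of known members. Of 15 genes of imprint maintenance and DNA methylation, 11 were tested and 2 fell with PB-4 against control, Dnmt1, the maintenance methyltransferase (190.8 ± 36.4 CPM with PB-4, 393 ± 56.9 in control cells, edgeR adjusted p = 0.0205), and Uhrf1, which brings it to replicated DNA (-1.53 ± 0.32, edgeR adjusted p = 0.0154). With the block, 2 were higher and 6 lower, beside 23.1% and 21.3% of all genes (11.5% and 4.59% in the main fit). Of 9 genes of Polycomb repressive complex 2, which methylates histone H3, 4 fell and 0 rose (Ezh2, Suz12, Rbbp4 and Rbbp7, log2 fold changes of -1.03 to -1.23), beside 4.59% lower of all genes, and with the block 2 were higher and 6 lower, beside 23.1% and 21.3%. Of 7 MEF2 and CREB factors 6 were tested and 1 fell, Atf1 (-0.75 ± 0.19, edgeR adjusted p = 0.0321), and with the block 0 were higher and 2 lower. No MEF2 gene was among those called in the main fit.

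Of 14 genes of miRNA processing, 2 rose and 1 fell with PB-4 against control, a share near that over all genes (11.5% higher and 4.59% lower). Adarb1, an RNA-editing enzyme, rose to 30.9 ± 2.5 CPM with PB-4, against 8.99 ± 0.49 in control cells (edgeR adjusted p = 0.00205). Ago4, an Argonaute protein gene, rose (2.10 ± 0.45, edgeR adjusted p = 0.0162), and Xpo5, which exports hairpins from the nucleus, fell (-0.92 ± 0.20, edgeR adjusted p = 0.0179). With the block, 4 were higher and 4 lower, also near the share over all genes (23.1% and 21.3%).

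Imprinted genes elsewhere in the genome gave calls in 1 direction in the main fit. Higher calls were also the more common over all genes with PB-4 against control (11.5% higher and 4.59% lower). Of 17 paternally expressed genes 7 were tested and 2 rose with PB-4, Peg10 (3219 ± 271 CPM with PB-4, 1302 ± 340 in control cells, edgeR adjusted p = 0.0154) and Igf2, a growth factor gene that was nearly absent from control cells (3.22 ± 3.5 CPM with PB-4, 0.0213 ± 0.0368 in control cells, edgeR adjusted p = 0.00934). Of 14 maternally expressed genes 12 were tested and 4 rose, Slc22a18, Phlda2, Cdkn1c and Kcnq1, with log2 fold changes of 2.34 to 3.95. These 4 are neighbours in the Kcnq1 imprinted domain. With the block the paternal list had 4 higher and 2 lower and the maternal list 6 higher and 1 lower, beside 23.1% and 21.3% of all genes. None of 4 tested imprinted noncoding RNAs was called (Kcnq1ot1 and Peg13 were the most abundant, with log2 fold changes of -0.58 ± 0.78 and 0.26 ± 0.22), and with the block 1 was lower. With ATRA no gene of these lists was called in the main fit, while the block gave 1 higher and 4 lower in imprint maintenance, 1 and 6 in Polycomb repressive complex 2, and 0 and 2 in each of the MEF2 and CREB, paternal and maternal lists. Over all genes the block with ATRA gave 7.53% higher and 10.8% lower. Between PB-4 and ATRA, 1 gene of the flanking list was lower, 1 of imprint maintenance, 1 of miRNA processing, 2 paternal and 3 maternal genes were higher, and no other gene of these lists was called, beside 10.3% higher and 1.94% lower of all genes tested. With the block the flanking list had 2 higher and 3 lower, imprint maintenance 1 and 0, MEF2 and CREB factors 1 and 0, miRNA processing 3 and 3, Polycomb repressive complex 2 had 0 and 3, the paternal list 3 and 0 and the maternal list 6 and 1, beside 18.7% higher and 11.1% lower of all genes.

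The calls of list genes with PB-4 against control rested on few libraries. Adarb1, Igf2, Slc22a18, Phlda2 and Rbbp7 kept an edgeR or DESeq2 adjusted p under 0.05 in every alternative (highest values 0.0171, 0.0451, 0.0351, 0.0136 and 0.0428 in that order). Each of the other named genes of these lists lost its call when some library was left out, with highest adjusted p values from 0.0523 for Peg10, without control replicate 2, to 0.163 for Begain.

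Markers of cell types that are known to use the domain were measured in the same groups, in other libraries. Summed over 8 neuronal genes the level was 301 to 352 CPM with PB-4, 71.4 to 73.1 with ATRA and 94.7 to 152 in control cells, and 3 of 5 tested rose with PB-4 against control (Tubb3, Syt1 and Rbfox3), with none of the 8 at 0 in the PB-4 group. Summed over 4 skeletal muscle genes it was 58.6 to 90.7 CPM with PB-4, 16.3 to 23.1 with ATRA and 6.78 to 19.7 in control cells, and Des and Myh3 rose while Myod1 was at 0 in every group. Summed over 7 fibroblast genes it was 347 to 1314 CPM with PB-4, 3.49 to 11.1 with ATRA and 8.36 to 16.7 in control cells. Of the 6 tested, 4 rose (Col1a1, Col3a1, Lum and Pdgfra), while Thy1 was at 0 in every group. Most of the fibroblast sum with PB-4 was Col1a1 (581 ± 549 CPM, SD), and Lum was at 0.531 ± 0.228 CPM. These marker sums were thus higher in every PB-4 library than in every other library, as the domain sum was against control, and their part in the miRNA result was not tested. Immune genes summed to 35.2 to 44.0 CPM with PB-4, 4.38 to 7.49 with ATRA and 11.6 to 16.8 in control cells, with 1 of 4 tested called higher (Lyz2). Endothelial genes stayed at or below 1.19 CPM and keratinocyte genes at or below 0.132 CPM in every library. The melanocyte genes that define the line were present in all groups, at 6598 to 8631 CPM with PB-4, 7822 to 10081 with ATRA and 12340 to 14536 in control cells, and 3 of 7 fell with PB-4 (Tyrp1, Pmel and Mlana). Of the marker genes named, Rbfox3, Lum, Myh3 and Tyrp1 each lost the call when some library was left out (highest adjusted p 0.0897 for Rbfox3, 0.0627 for Lum, 0.0808 for Myh3 and 0.0704 for Tyrp1). Of all genes tested with PB-4 against control, 11.5% were called higher and 4.59% lower. In bulk cultures, fewer cells of a kind and less RNA per cell cannot be told apart.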

How the data were processed

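Total RNA and miRNA of B16 cells were sequenced in 3 groups of 3 libraries per assay. The authors deposited whole-number counts for genes and for mature miRNAs, not normalized. By the submitters' processing notes, total RNA was aligned with HISAT2 2.0.4 and miRNA with BWA to GRCm38; the counter, the strand setting and the version of BWA were not stated. Of 46095 entries of the gene table, 27 with dates in place of gene names (0.214 to 0.260% of counts) were left out. Depth was 12632669 to 36176443 counts per total RNA library and 3838621 to 6856229 per miRNA library.

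Groups were compared 2 at a time with edgeR 4.0.16 (quasi-likelihood, robust, TMM) in R 4.3.3, over features reaching a sum of 10 counts in the 6 libraries, with Benjamini-Hochberg adjustment over all features tested and a threshold of 0.05. The SE was taken as the size of the log2 fold change over the root of its F value. The fits were tested on simulated data in which only features with more counts than most domain miRNAs were changed. That test does not cover the scarce miRNAs. Pooled count ratios have exact 95% intervals from the binomial distribution and cover counting error only. Alternatives were DESeq2 1.42.0, RLE size factors, library totals, no filter, filterByExpr, all 9 libraries in one fit, a replicate block, each library left out in turn and, for total RNA, replicates 1 and 2 only. Same-numbered total RNA libraries deviated together (correlations of 0.294 to 0.671, over the limit of 0.1), so that the numbers were taken to pair them. Libraries of different number gave -0.565 to 0.404, and those of replicate 1 with replicate 2 gave 0.238 to 0.404. The numbers thus set replicate 3 apart, but do not show that replicates 1 and 2 are separate pairs. Same-numbered miRNA libraries deviated together between PB-4 and control (0.387 to 0.632), and not between ATRA and control (-0.428 to 0.0563) or PB-4 and ATRA (-0.735 to 0.291). PB-4 replicate 2 and control replicate 2 were both low in miR-690, and miRNA libraries of different number reached 0.802 (PB-4 replicate 3 with ATRA replicate 2). These values do not show that the miRNA numbers are true pairs. Total RNA replicate 3 of each group was the shallowest.

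Named were the 4 hosts, the 10 miRNAs with the highest mean CPM, up to 12 called miRNAs per comparison by adjusted p, and up to 4 called genes of each list by mean CPM, or the 2 highest where none was called (taken from PB-4 against control). miRNAs named besides these were chosen after their values were seen. The members and lists were chosen with earlier results of these data known. Other steps used Python 3.11.15, pandas 2.3.3, numpy 2.4.6, scipy 1.17.1 and matplotlib 3.10.9.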

Additional observations from a re-analysis of the deposited data

How the results depend on the processing

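Every domain miRNA stayed at a low count, and 52 of 97 miRNAs had no test of PB-4 against control. In that comparison 8 to 12 were called higher in the 14 alternatives and none was called lower (8 to 12 also when each library was left out), with no change over 1.5 times. RLE size factors moved the median log2 fold change of all miRNAs by -0.12, and DESeq2 turned the split of all calls to 141 higher and 95 lower, against 153 and 60. For ATRA against control, where none was called, DESeq2 called 1 higher (miR-127-3p), no filter 3, all 9 libraries in one fit 1 and the replicate block 1 (miR-127-3p), and leaving out a library gave 0 to 3. For PB-4 against ATRA, the count of 4 higher became 0 with the replicate block, 0 without the 3 libraries low in miR-690 and 0 to 6 with a library left out, while DESeq2 called 1 lower and leaving out a library gave 0 to 2 lower. Same-numbered miRNA libraries of PB-4 and control deviated together, and there the replicate block gave 12 called higher, the 11 and miR-370-3p. Replicate 2 of both groups was low in miR-690, so the numbers are not shown to be true pairs. The numbers did not pair ATRA libraries with either group. A call lost under the replicate block is therefore no measure of a weaker effect in comparisons with ATRA. The log2 fold change of miR-377-5p changed sign without PB-4 replicate 3 (-0.27) or control replicate 2 (-0.12) for PB-4 against control, without ATRA replicate 2 (-0.89) for ATRA against control, and with the replicate block (0.22) or without PB-4 replicate 2 (0.30) or ATRA replicate 2 (1.26) for PB-4 against ATRA. Leaving out a library moved this value from -0.27 to 0.99, from -0.89 to 1.17 and from -0.96 to 1.26 in the 3 comparisons. Of the values of the named miRNAs under the alternatives, 515 kept their direction and side of the threshold, 38 lost the call, 14 gained one and 6 changed sign. Host transcripts stayed without a test under every alternative, with 0 called. In total RNA the replicate block raised the calls of PB-4 against control to 4494 higher and 4136 lower, against 2246 and 893, and replicates 1 and 2 alone gave 4306 and 3155. Of the values of the named list and marker genes, 62 lost the call, 2 gained one and 0 changed sign. The cause of these changes was not tested.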
